A study of Mus musculus with 8 samples.

Results

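The NF-kB family, chosen with earlier results of these data known, was followed in helper T cells through 10 genes taken by name. They were the 5 subunit genes Nfkb1, Nfkb2, Rel, Rela and Relb and the 4 I-kappa-B genes Nfkbia, Nfkbib, Nfkbid and Nfkbiz. The last was Tnfaip3, which encodes the inhibitor A20. All 10 stood on 1 line each among the 11824 gene symbols used from the deposited table, and all 10 passed the filter on low values. The cells were CD44+ CD4+ T cells from skin-draining lymph nodes of BALB/cAJcl mice. There were 4 genotypes with 2 libraries each: mice lacking T-bet (T-bet-/-), mice lacking STAT6 (STAT6-/-), mice lacking both (T-bet-/- STAT6-/-), and wild type (WT). In all 4 genotypes the sorted cells had been given PMA and ionomycin for 2 h, so resting levels were not measured and every value below is a level in stimulated cells. The sources used here do not say which exons the null alleles lack, whether mice were pooled, or the sex and age of the mice. T-bet is the transcription factor of Th1 cells and STAT6 carries the signal of the IL-4 receptor, and the design asks how helper cells differ when one or both are lost.

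NF-kB proteins are dimers. RelA, c-Rel and RelB carry an activation domain, while Nfkb1 and Nfkb2 encode the precursors p105 and p100, which are processed to the DNA-binding subunits p50 and p52. In resting cells the dimers are held in the cytoplasm by the classical I-kappa-B proteins. The kinase complex IKK marks those proteins for destruction, and the freed dimers enter the nucleus, where they also switch on the genes of their own inhibitors. PMA activates protein kinase C, which reaches IKK through a complex that holds BCL10 and MALT1, so the stimulus used here acts on this pathway directly.

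RefSeq promoters (build GRCm38.p6) were at hand for 7 of the 10 genes, at 12 annotated start sites. The 250 bases before the start are shown for 6 of them: those of Nfkbia and Nfkbib, whose transcripts moved together, and those of Nfkbid, Rel, Nfkb2 and Tnfaip3, which each changed in at least 1 mutant. Each reads 5′ to 3′ on the strand of the gene, and capitals mark every stretch that matches the 10-base NF-kB consensus motif on either strand, with overlapping matches joined. The Rela promoter, which has no match, is not shown, though Rela also changed in T-bet-/- STAT6-/- cells. For Nfkbid, Nfkb2 and Tnfaip3, which have several start sites, a start site with a match is shown.
Nfkbia, chr12:55492648-55492897, minus strand: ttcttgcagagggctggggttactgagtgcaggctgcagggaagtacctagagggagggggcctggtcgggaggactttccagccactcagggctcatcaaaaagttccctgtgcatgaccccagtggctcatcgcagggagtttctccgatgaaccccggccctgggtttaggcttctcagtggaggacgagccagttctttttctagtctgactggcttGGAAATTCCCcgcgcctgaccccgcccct
Nfkbib, chr7:28766645-28766894, minus strand: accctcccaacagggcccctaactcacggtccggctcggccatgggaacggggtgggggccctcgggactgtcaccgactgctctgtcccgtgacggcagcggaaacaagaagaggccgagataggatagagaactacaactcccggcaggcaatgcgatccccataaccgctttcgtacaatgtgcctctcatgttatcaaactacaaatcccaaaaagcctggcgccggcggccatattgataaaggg
Nfkbid (second start site), chr7:30422156-30422405, plus strand: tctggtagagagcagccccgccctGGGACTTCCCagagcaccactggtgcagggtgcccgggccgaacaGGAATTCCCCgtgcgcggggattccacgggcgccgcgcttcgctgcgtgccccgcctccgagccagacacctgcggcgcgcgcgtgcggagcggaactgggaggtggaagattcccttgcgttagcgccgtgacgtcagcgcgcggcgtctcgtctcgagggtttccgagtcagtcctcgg
Rel, chr11:23770970-23771219, minus strand: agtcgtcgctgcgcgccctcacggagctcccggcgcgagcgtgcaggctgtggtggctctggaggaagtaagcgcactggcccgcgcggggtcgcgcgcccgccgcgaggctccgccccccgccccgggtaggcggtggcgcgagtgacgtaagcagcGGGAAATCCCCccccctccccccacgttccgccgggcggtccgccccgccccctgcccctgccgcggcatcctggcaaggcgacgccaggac
Nfkb2 (first start site), chr19:46304487-46304736, plus strand: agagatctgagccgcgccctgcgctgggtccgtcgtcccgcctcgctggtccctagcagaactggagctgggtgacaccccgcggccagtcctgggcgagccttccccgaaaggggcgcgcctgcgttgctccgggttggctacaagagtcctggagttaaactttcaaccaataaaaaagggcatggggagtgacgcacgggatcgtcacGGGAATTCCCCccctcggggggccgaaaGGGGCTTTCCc
Tnfaip3 (first start site), chr10:19015411-19015660, minus strand: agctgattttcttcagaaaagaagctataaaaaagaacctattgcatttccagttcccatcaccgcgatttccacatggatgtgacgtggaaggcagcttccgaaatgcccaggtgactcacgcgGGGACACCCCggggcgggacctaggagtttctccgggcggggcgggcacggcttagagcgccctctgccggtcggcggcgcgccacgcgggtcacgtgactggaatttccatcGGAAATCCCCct

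At least 1 such stretch was present before a start site of 5 of the 7 genes, which are Nfkbia, Nfkbid, Rel, Nfkb2 and Tnfaip3. Counted by promoter it was 7 of 12, since the other two start sites of Nfkbid and the second of Tnfaip3 had no match. The same motif was found in 3.90% of all 32851 promoters of this length and in 4.79% of the 10666 promoters of genes in the table. Nfkbia had GGAAATTCCC from 29 to 20 bases before its start, and Tnfaip3 had GGAAATCCCC from 12 to 3 and GGGACACCCC from 125 to 116 bases before its first start site. Rel had the overlapping matches GGGAAATCCCC from 92 to 82 bases before its start. Nfkb2 had GGGAATTCCCC from 39 to 29 bases and GGGGCTTTCC from 11 to 2 bases before the first of its 3 start sites. Nfkbid had GGGACTTCCC and GGAATTCCCC, from 226 to 217 and from 181 to 172 bases before its second start site. Neither Nfkbib nor Rela had a match in this window, which says only that these letters are not there.

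The labels were first checked on the targeted genes. Tbx21, which encodes T-bet, stood at 1.44 and 1.54 FPKM in T-bet-/-, 102 and 92.1 FPKM in STAT6-/-, 2.49 and 2.09 FPKM in T-bet-/- STAT6-/- and 30.8 and 31.6 FPKM in WT libraries. Stat6 had 88.8 and 89.8 FPKM in T-bet-/- libraries, 31.6 and 29.0 FPKM in STAT6-/- libraries, 29.6 and 26.9 FPKM in T-bet-/- STAT6-/- libraries and 89.9 and 90.9 FPKM in WT libraries. Each transcript was lowest where its gene was deleted, and neither was at 0. FPKM, which divides the fragments of a gene by its length and by the size of the library, allows levels of different genes to be compared. The WT libraries stood apart: Pearson r of log2(FPKM + 1) was 0.9492 to 0.9642 between WT and mutant libraries, 0.9865 to 0.9912 between mutant genotypes and 0.9971 to 0.9979 within genotypes. A difference in how WT cells were prepared cannot be told apart from the gene losses in any comparison with WT. The markers of helper T cells were high, with Cd3e at 228 to 376 FPKM and Cd4 at 88.1 to 208 FPKM over the 8 libraries, though Cd4 was lower in T-bet-/-, STAT6-/- and T-bet-/- STAT6-/- cells than in WT cells (-0.77, -0.66 and -1.02).

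All 10 genes were strongly expressed, and the I-kappa-B gene Nfkbid led them. Its mean over the 8 libraries, 1425 FPKM, ranked 41 among the 11824 symbols. Nfkb1 (582 FPKM, rank 141) and Nfkbia (577 FPKM, rank 143) followed. Rela (257), Nfkbiz (223), Nfkb2 (199), Rel (191) and Tnfaip3 (173) lay close together, and Nfkbib and Relb (99.4) were lowest, ranking 681 and 688. The difference between the highest and the lowest library was 2.20-fold for Rel, 2.00-fold for Nfkb1, 1.98-fold for Nfkbib and 1.81-fold for Nfkbia, down to 1.19-fold for Nfkbiz. In bulk RNA such as this, fewer cells of a type and less RNA per cell cannot be told apart.

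**Figure D1:**
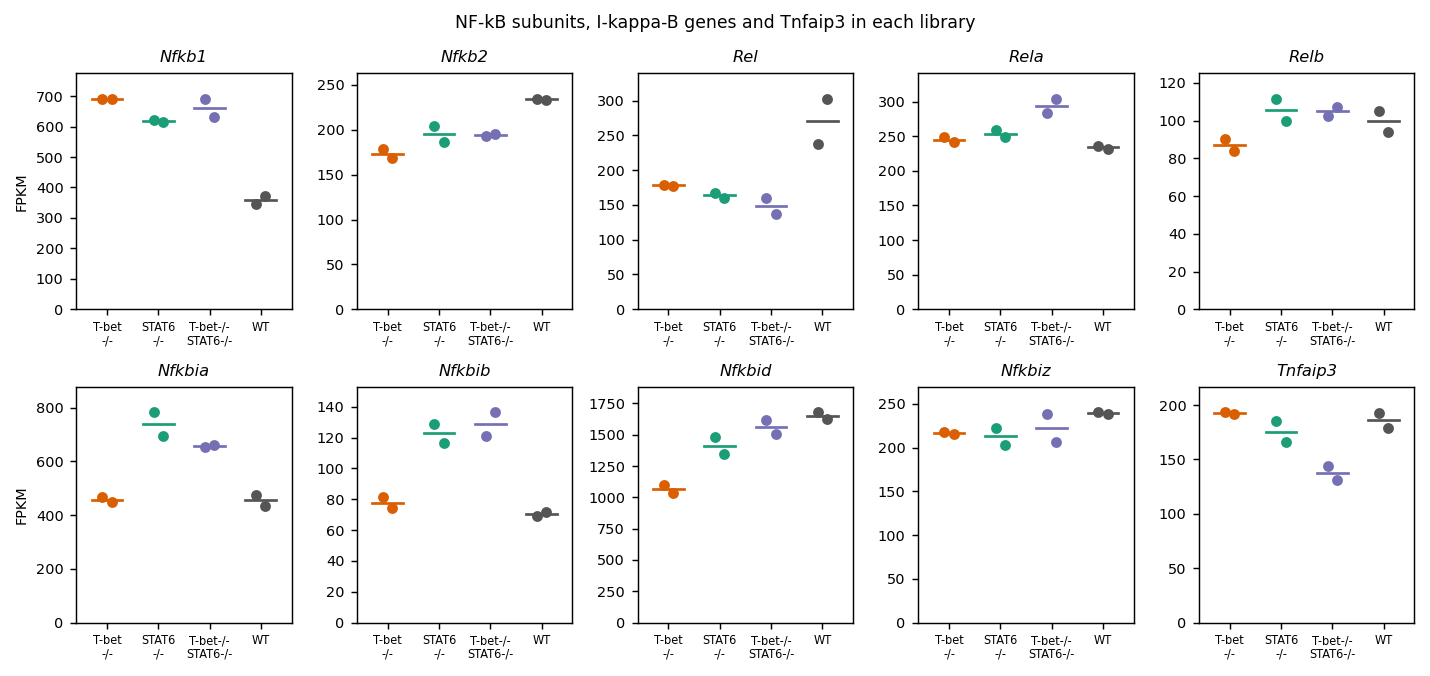
Level of each of the 10 genes, in FPKM on a linear axis from 0, in the 2 libraries (points) of each genotype, with the mean of the 2 as a line. Nfkb1 was lowest and Rel highest in the WT libraries, Nfkbia and Nfkbib were high in both genotypes without STAT6, Nfkbid was lowest in T-bet-/- and Tnfaip3 lowest in T-bet-/- STAT6-/- libraries.

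Genotypes were compared with limma on log2(FPKM + 1), in 1 fit of all 8 libraries, with p-values adjusted by the Benjamini-Hochberg method over the 10266 genes tested. Genes with an adjusted p below 0.05 are counted as called. In T-bet-/- against WT cells 5 of the 10 genes were called, 1 higher and 4 lower, against 70.6% of all genes tested (34.2% higher and 36.3% lower). In STAT6-/- against WT cells 6 were called, 3 higher and 3 lower, against 71.1% of all genes (35% higher and 36.1% lower). In T-bet-/- STAT6-/- against WT cells 7 were called, 4 higher and 3 lower, against 73.1% (36.3% higher and 36.8% lower). The share of the family that changed was thus no higher than the share of all genes. The median log2 fold change of the 10 genes was -0.07, 0.00 and 0.00 in these comparisons, and that of all genes was -0.02, -0.01 and -0.01. At least a 1.5-fold change, a size chosen after the values were seen, was found in 3, 4 and 3 of the 10 genes, against 28.9%, 31.5% and 34.7% of all genes. These 3 comparisons share the WT libraries, so their values stand side by side and do not support each other. Which gene moved in which genotype is given by role.

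Nfkb1, the gene of p105 and p50, was the subunit gene with the highest level and rose in all 3 mutants. It stood at 692 and 690 FPKM in T-bet-/-, 621 and 614 FPKM in STAT6-/-, 692 and 630 FPKM in T-bet-/- STAT6-/- and 346 and 373 FPKM in WT libraries. All 6 mutant libraries were above both WT libraries. The log2 fold change against WT was 0.94 ± 0.07 (SE, n = 2 per genotype, adjusted p = 3.46e-06) in T-bet-/-, 0.78 ± 0.07 (adjusted p = 8.57e-06) in STAT6-/- and 0.88 ± 0.07 (adjusted p = 3.44e-06) in T-bet-/- STAT6-/- cells, or 1.92-fold, 1.72-fold and 1.83-fold. Adding STAT6 loss to T-bet loss gave -0.06 (95% interval -0.21 to 0.08, adjusted p = 0.480). The rise with both losses was therefore smaller than the sum of the single ones, and the interaction, which is STAT6 loss measured without T-bet minus STAT6 loss measured with T-bet, was -0.84 ± 0.09 (adjusted p = 0.000122).

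Rel, the gene of c-Rel, which in T cells is needed for full Il2 transcription, fell in all 3 mutants. Il2 itself was called higher than in WT in T-bet-/-, STAT6-/- and T-bet-/- STAT6-/- cells (0.72, 0.58 and 0.98). A link between Rel and Il2 levels was not tested. Levels of Rel were 179 and 178 FPKM in T-bet-/-, 168 and 161 FPKM in STAT6-/-, 160 and 138 FPKM in T-bet-/- STAT6-/- and 238 and 303 FPKM in WT libraries. Both WT libraries lay above all 6 mutant libraries, though they differed from each other by more than the replicates of any mutant did. The log2 fold changes against WT were -0.59 ± 0.11 (adjusted p = 0.00118), -0.71 ± 0.11 (adjusted p = 0.000361) and -0.85 ± 0.11 (adjusted p = 0.000102) in T-bet-/-, STAT6-/- and T-bet-/- STAT6-/- cells. No pair of mutants differed at the threshold; T-bet-/- STAT6-/- against T-bet-/- cells gave -0.26 (95% interval -0.51 to -0.01, adjusted p = 0.0968), which passed without WT replicate 1 (adjusted p = 0.0305) or without WT replicate 2 (adjusted p = 0.0306). The interaction was 0.44 ± 0.15 (adjusted p = 0.0351). It was not called with median-of-ratios scaling (adjusted p = 0.0629), quantile normalization (0.32, adjusted p = 0.139) or the replicate number as a block (adjusted p = 0.0529). It missed the threshold when WT replicate 2 (adjusted p = 0.0813), T-bet-/- replicate 1 (0.0744) or 2 (0.0825), STAT6-/- replicate 1 (0.0645) or 2 (0.0987), or T-bet-/- STAT6-/- replicate 1 (0.103) was left out.

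With Nfkb1 higher and Rel lower, the ratio of Nfkb1 to Rel, both in FPKM, was 3.86 and 3.88 in T-bet-/-, 3.70 and 3.83 in STAT6-/-, 4.32 and 4.58 in T-bet-/- STAT6-/- and 1.45 and 1.23 in WT libraries. Nfkb1 made up 50.2% ± 0.59, 46.2% ± 0.94 and 47.1% ± 1.76 of the summed FPKM of the 5 subunit genes in the mutants, in the order above, and 30.0% ± 0.28 in WT (SD, n = 2 each). Rel made up 13.0% ± 0.11, 12.3% ± 0.035 and 10.6% ± 0.83 in the mutants and 22.5% ± 2.84 in WT. The summed level of the 5 genes differed less, at 1361 to 1389, 1311 to 1363 and 1375 to 1433 FPKM in the mutants and 1161 to 1236 FPKM in WT.

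**Figure D2:**
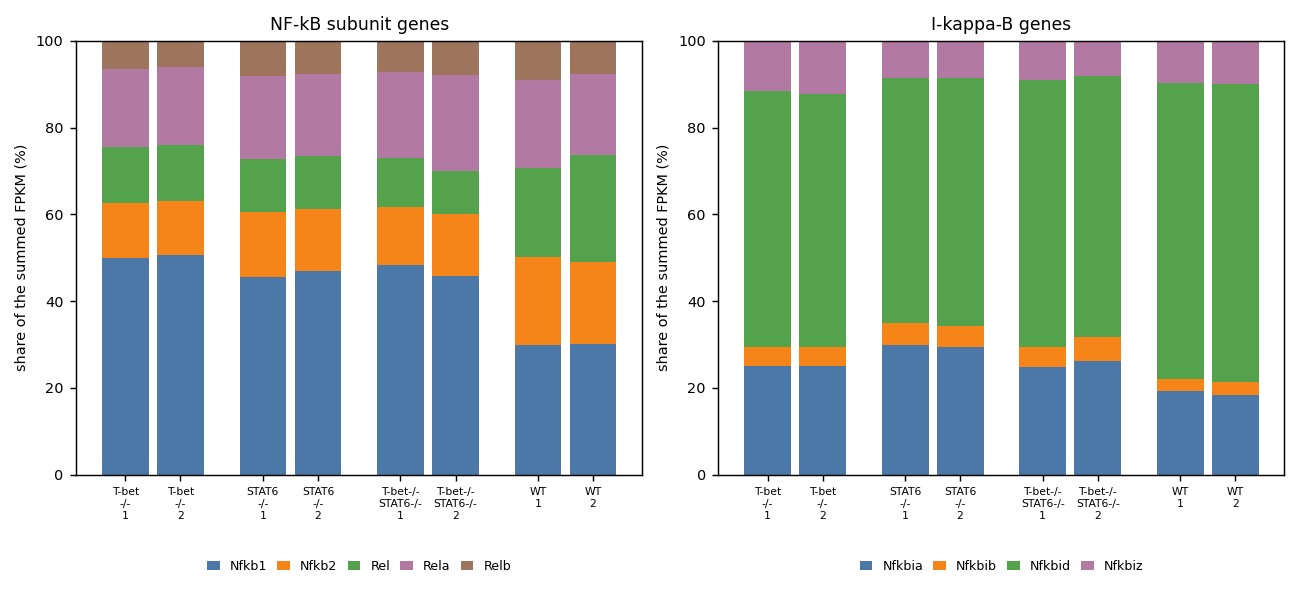
Share of each gene in the summed FPKM of the 5 subunit genes (left) and of the 4 I-kappa-B genes (right), in %, with 1 bar per library. Among subunits the Nfkb1 share was larger and the Rel share smaller in all 6 mutant libraries than in both WT libraries, and among I-kappa-B genes Nfkbid held more than 50% in every library.

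The other subunit genes changed less. Rela, whose product forms the main activating dimer with p50, stood at 249 and 242 FPKM in T-bet-/-, 259 and 249 FPKM in STAT6-/-, 284 and 305 FPKM in T-bet-/- STAT6-/- and 237 and 232 FPKM in WT libraries. Both libraries without either factor were above the other 6. Rela rose by 0.33 ± 0.06 against WT in T-bet-/- STAT6-/- cells (adjusted p = 0.000609), and gave 0.07 (adjusted p = 0.312) in T-bet-/- and 0.12 (adjusted p = 0.0911) in STAT6-/- cells. Both single mutants were called higher with GC and length trends removed (0.21, adjusted p = 0.00165, and 0.22, adjusted p = 0.00136). Rela was also higher in T-bet-/- STAT6-/- than in T-bet-/- cells (0.26, adjusted p = 0.00846). It was higher there than in STAT6-/- cells too (0.21, adjusted p = 0.0299, but 0.0503 without the intensity trend and 0.0699 with only those genotypes in the fit). The first of these calls was lost without T-bet-/- replicate 2 (adjusted p = 0.0747). The second was lost without T-bet-/- replicate 1 (0.0614) or 2 (0.0616), STAT6-/- replicate 1 (0.0947) or 2 (0.161), or T-bet-/- STAT6-/- replicate 2 (0.122).

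Nfkb2, the gene of p100, which is processed to p52 in the alternative pathway, stood at 179 and 168 FPKM in T-bet-/-, 204 and 187 FPKM in STAT6-/-, 193 and 196 FPKM in T-bet-/- STAT6-/- and 235 and 233 FPKM in WT libraries. All 6 mutant libraries were below both WT libraries. It fell by 0.43 ± 0.06 on the log2 scale in T-bet-/- (adjusted p = 0.000193), by 0.26 ± 0.06 in STAT6-/- (adjusted p = 0.00349) and by 0.27 ± 0.06 in T-bet-/- STAT6-/- cells (adjusted p = 0.00305). The interaction was 0.43 ± 0.08 (adjusted p = 0.00249), so here too the losses did not add. Relb, whose product pairs with p52, stood at 90.4 and 83.8 FPKM in T-bet-/-, 112 and 99.996 FPKM in STAT6-/-, 103 and 107 FPKM in T-bet-/- STAT6-/- and 105 and 94.2 FPKM in WT libraries. T-bet-/- libraries were lowest, and the others overlapped.

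Relb was lower in T-bet-/- than in WT cells by a small amount (-0.19, adjusted p = 0.0487). It was no longer called when WT replicate 1 (adjusted p = 0.269), T-bet-/- replicate 1 (0.057) or 2 (0.251), or T-bet-/- STAT6-/- replicate 1 (0.0514) or 2 (0.0513) was left out. The call was also lost with no filter (0.0513), median-of-ratios scaling (0.0522), quantile normalization (0.0587), no intensity trend (0.0696) and with GC and length trends removed (-0.095, adjusted p = 0.166). Relb was higher in T-bet-/- STAT6-/- than in T-bet-/- cells (0.27, adjusted p = 0.0277, but 0.0511 with quantile normalization). It was also higher in STAT6-/- than in T-bet-/- cells (0.28, adjusted p = 0.0267). Without T-bet-/- replicate 1 these had adjusted p = 0.0553 and 0.0557, and without T-bet-/- replicate 2 adjusted p = 0.172 and 0.169. The first was also lost without T-bet-/- STAT6-/- replicate 2 (adjusted p = 0.118) and the second without STAT6-/- replicate 1 (adjusted p = 0.171).

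Nfkbia and Nfkbib, both genes of classical inhibitors, rose with STAT6 loss, whether or not T-bet was present. Nfkbia encodes I-kappa-B alpha, the fast feedback inhibitor that is resynthesised after each round of NF-kB activation. It stood at 784 and 695 FPKM in STAT6-/-, 654 and 659 FPKM in T-bet-/- STAT6-/-, 468 and 447 FPKM in T-bet-/- and 476 and 434 FPKM in WT libraries. The 4 libraries without STAT6 were above the 4 with STAT6, and T-bet-/- and WT libraries overlapped. The log2 fold change was 0.70 ± 0.07 in STAT6-/- against WT cells (adjusted p = 3.62e-05) and 0.52 ± 0.07 in T-bet-/- STAT6-/- against T-bet-/- cells (adjusted p = 0.00126). The 2 effects of STAT6 loss did not differ at the threshold (interaction -0.18, 95% interval -0.42 to 0.06, adjusted p = 0.178), but did so with quantile normalization (-0.27, adjusted p = 0.0293) and with GC and length trends removed (-0.31, adjusted p = 0.0165). T-bet loss gave 0.01 (95% interval -0.16 to 0.18, adjusted p = 0.934) for Nfkbia.

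Nfkbib encodes I-kappa-B beta, a slower inhibitor of the same class, and was likewise high in both genotypes without STAT6, at a lower level. It stood at 129 and 117 FPKM in STAT6-/-, 121 and 137 FPKM in T-bet-/- STAT6-/-, 81.3 and 74.5 FPKM in T-bet-/- and 69.0 and 71.6 FPKM in WT libraries. Again every library without STAT6 was above every library with it. STAT6 loss gave 0.80 ± 0.08 against WT (adjusted p = 2.09e-05) and 0.72 ± 0.08 in T-bet-/- cells (adjusted p = 0.000314), or 1.74-fold and 1.65-fold. The interaction was -0.08 (95% interval -0.33 to 0.17, adjusted p = 0.570), and was called with GC and length trends removed (-0.27, adjusted p = 0.0259). T-bet-/- against WT cells gave 0.14 (adjusted p = 0.125), which was called with GC and length trends removed (0.32, adjusted p = 0.00159). The sum of Nfkbia and Nfkbib was 863 ± 71.4 FPKM in STAT6-/-, 785 ± 14.5 FPKM in T-bet-/- STAT6-/-, 535 ± 19.4 FPKM in T-bet-/- and 526 ± 27.9 FPKM in WT cells (SD, n = 2 each).

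**Figure D3:**
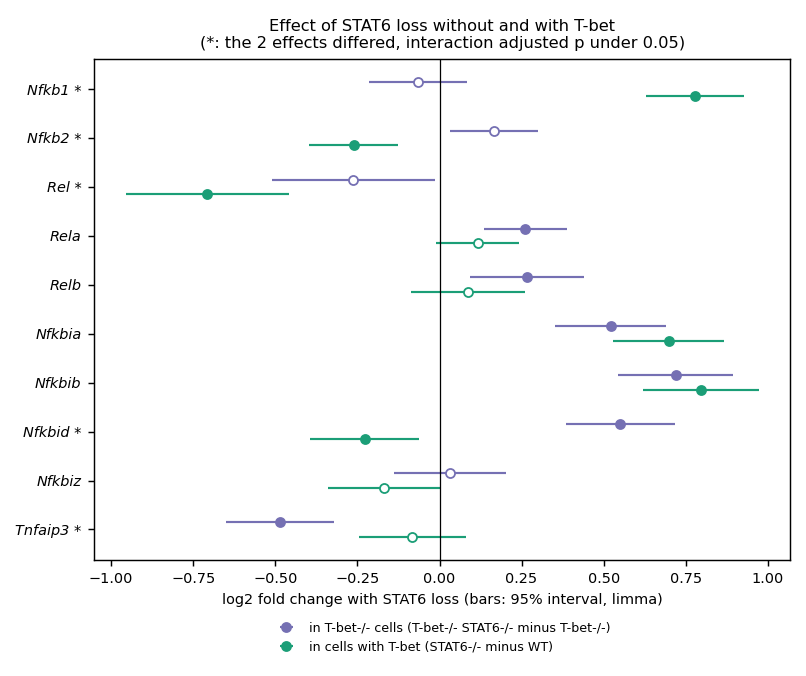
Log2 fold change with STAT6 loss for each gene, in T-bet-/- cells (upper point) and in cells with T-bet (lower point), with 95% intervals from limma; filled points passed an adjusted p of 0.05 and stars mark genes whose 2 effects differed. Nfkbia and Nfkbib lay at 0.52 to 0.80 in both settings, while Nfkbid lay at 0.55 without T-bet and -0.23 with it.

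Measured against the gene of their main target, Nfkbia per Rela, both in FPKM, was 3.03 and 2.79 in STAT6-/-, 2.30 and 2.16 in T-bet-/- STAT6-/-, 1.88 and 1.85 in T-bet-/- and 2.01 and 1.87 in WT libraries. The ratio was highest in STAT6-/- libraries, and T-bet-/- STAT6-/- libraries, in which Rela was also higher, lay between them and the libraries with STAT6.

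Nfkbid and Nfkbiz, genes of nuclear I-kappa-B proteins, had other patterns. Nfkbid encodes I-kappa-B NS, which acts in the nucleus with p50 and is needed for the maturation of regulatory T cells. It stood at 1097 and 1039 FPKM in T-bet-/-, 1479 and 1347 FPKM in STAT6-/-, 1619 and 1510 FPKM in T-bet-/- STAT6-/- and 1683 and 1624 FPKM in WT libraries. The T-bet-/- libraries were the lowest and did not overlap any other genotype, while T-bet-/- STAT6-/- and WT libraries nearly met. Nfkbid fell by 0.63 ± 0.07 in T-bet-/- against WT cells (adjusted p = 6.60e-05). In T-bet-/- STAT6-/- against WT cells it gave -0.08 (95% interval -0.25 to 0.09, adjusted p = 0.342). It was higher in T-bet-/- STAT6-/- than in T-bet-/- cells by 0.55 ± 0.07 (adjusted p = 0.000880). In cells with T-bet, STAT6 loss went the other way, at -0.23 ± 0.07 (adjusted p = 0.0196), and the interaction was 0.78 ± 0.10 (adjusted p = 0.000322). The small fall in STAT6-/- cells was lost without WT replicate 1 (adjusted p = 0.0652) or STAT6-/- replicate 2 (adjusted p = 0.163), with quantile normalization (-0.05, adjusted p = 0.608) and with GC and length trends removed (-0.14, adjusted p = 0.081).

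Nfkbid alone made up 58.7% ± 0.28 of the summed FPKM of the 4 I-kappa-B genes in T-bet-/-, 56.8% ± 0.33 in STAT6-/-, 60.8% ± 0.99 in T-bet-/- STAT6-/- and 68.4% ± 0.29 in WT cells (SD, n = 2 each). It stood at 2.35 and 2.33 times Nfkbia in T-bet-/-, 1.89 and 1.94 times in STAT6-/-, 2.48 and 2.29 times in T-bet-/- STAT6-/- and 3.54 and 3.74 times in WT libraries. The ratio of Nfkbid to Nfkbia was therefore lower in all 6 mutant libraries. In T-bet-/- cells this went with lower Nfkbid at an Nfkbia level like that of WT, and in STAT6-/- cells mainly with higher Nfkbia.

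Nfkbiz encodes I-kappa-B zeta, a nuclear co-activator of secondary NF-kB targets that takes part in Th17 development. It was the steadiest of the 10, at 217 and 216 FPKM in T-bet-/-, 223 and 203 FPKM in STAT6-/-, 238 and 206 FPKM in T-bet-/- STAT6-/- and 241 and 238 FPKM in WT libraries. The WT libraries were highest, and the 3 mutants overlapped. No comparison with WT was called: the log2 fold changes were -0.14 (95% interval -0.32 to 0.03, adjusted p = 0.112), -0.17 (-0.34 to 0.00, adjusted p = 0.0687) and -0.11 (-0.28 to 0.06, adjusted p = 0.201). With only the compared genotypes in the fit, T-bet-/- (adjusted p = 0.0404) and STAT6-/- cells (0.0485) were called lower. Both were also called with GC and length trends removed (0.0418 and 0.0289), and STAT6-/- cells with the replicate number as a block (0.0482). Calls appeared without T-bet-/- STAT6-/- replicate 1 for all 3 mutants (adjusted p = 0.0444, 0.0237 and 0.0214) and without T-bet-/- STAT6-/- replicate 2 for T-bet-/- and STAT6-/- cells (adjusted p = 0.0445 and 0.0238). The interaction (0.20, adjusted p = 0.133) was called without T-bet-/- STAT6-/- replicate 2 (0.30, adjusted p = 0.0200).

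Tnfaip3 encodes A20, a ubiquitin-editing enzyme that shuts off signalling above IKK and is itself an NF-kB target. Its levels were 194 and 192 FPKM in T-bet-/-, 185 and 166 FPKM in STAT6-/-, 144 and 131 FPKM in T-bet-/- STAT6-/- and 193 and 179 FPKM in WT libraries. The T-bet-/- STAT6-/- libraries were the lowest and did not overlap the rest, while the other 3 genotypes were close together. Tnfaip3 fell by 0.43 ± 0.07 in T-bet-/- STAT6-/- against WT cells (adjusted p = 0.000516). Each single loss gave a value near 0, 0.05 in T-bet-/- (adjusted p = 0.528) and -0.08 in STAT6-/- cells (adjusted p = 0.324). The interaction was -0.40 ± 0.10 (adjusted p = 0.00863), so the effect of STAT6 loss differed with T-bet status. T-bet-/- STAT6-/- cells were also lower than T-bet-/- cells (-0.49, adjusted p = 0.00151) and than STAT6-/- cells (-0.35, adjusted p = 0.0107). The call against STAT6-/- cells was lost without STAT6-/- replicate 1 (adjusted p = 0.0920) or T-bet-/- STAT6-/- replicate 2 (adjusted p = 0.0576).

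**Figure D4:**
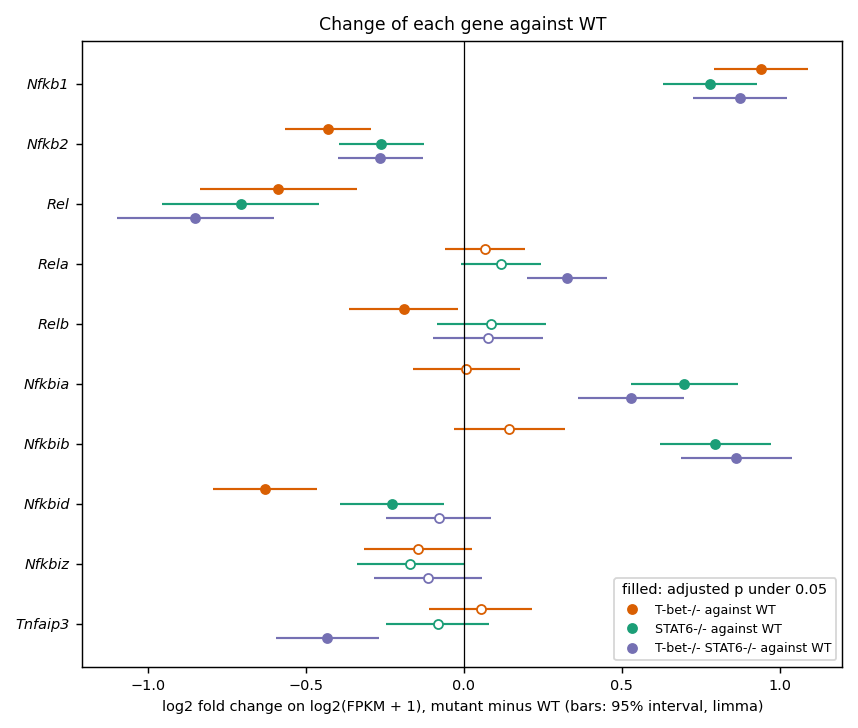
Log2 fold change of each gene in the 3 mutants against WT, from limma on log2(FPKM + 1), with 95% intervals; filled points passed an adjusted p of 0.05. Nfkb1 lay near 0.78 to 0.94 and Rel at -0.59 to -0.85 in all 3 mutants, Nfkbia and Nfkbib were raised in the 2 mutants without STAT6, and Tnfaip3 was lowered in T-bet-/- STAT6-/- cells.

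The fold changes among mutants do not use the WT levels, although the WT libraries add to the shared estimate of the spread. Here 6 of the 10 genes were called in T-bet-/- STAT6-/- against T-bet-/- cells, 5 higher and 1 lower, against 32.6% of all genes (16.4% higher and 16.2% lower), and 1 gene, Nfkbib, was at least 1.5-fold higher, against 5.34% of all genes past that size in either direction. In STAT6-/- against T-bet-/- cells 4 were called, all higher, against 27.2% of all genes (12.3% higher and 14.9% lower). These were Nfkbia (0.69), Nfkbib (0.65), Nfkbid (0.40) and Relb (0.28), of which Nfkbia and Nfkbib were at least 1.5-fold higher, against 5.7% of all genes past that size. In T-bet-/- STAT6-/- against STAT6-/- cells 2 were called, Rela higher and Tnfaip3 lower, against 19.9% of all genes (11.2% higher and 8.64% lower), and 0 were past 1.5-fold, against 3.72%. Leaving out 1 library gave between 4 and 7, between 3 and 4, and between 0 and 2 called genes in these comparisons. The interaction was called for 5 genes, 3 higher and 2 lower, against 57.3% of all genes (29.6% higher and 27.7% lower), and 2 of them, Nfkb1 and Nfkbid, were past 1.5-fold, against 28.5%. Most of these comparisons share libraries, so their counts are not independent of each other.

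Among other inhibitors, Bcl3 had the largest change. It encodes a nuclear I-kappa-B protein that works with p50 and p52 dimers. It stood at 29.9 and 27.7 FPKM in STAT6-/-, 20.6 and 27.7 FPKM in T-bet-/- STAT6-/-, 7.50 and 6.68 FPKM in T-bet-/- and 6.08 and 5.33 FPKM in WT libraries. As with Nfkbia and Nfkbib, all 4 libraries without STAT6 were above the other 4. STAT6 loss gave 2.15 against WT (adjusted p = 1.09e-06) and 1.62 in T-bet-/- cells (adjusted p = 5.99e-05). Nfkbie, the gene of I-kappa-B epsilon, a further classical inhibitor, fell in all 3 mutants (50.1 and 47.0 FPKM in T-bet-/-, 41.6 and 37.3 in STAT6-/-, 38.9 and 38.0 in T-bet-/- STAT6-/- and 75.3 and 69.5 in WT libraries), with log2 fold changes of -0.57, -0.86 and -0.90. In both mutants without STAT6 it thus went the other way from Nfkbia and Nfkbib, neither of which was called in T-bet-/- against WT cells.

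The list of other inhibitors and partners of A20 had 22 names, of which 20 were tested. Called against WT were 7 higher and 9 lower in T-bet-/-, 9 and 8 in STAT6-/-, and 9 and 9 in T-bet-/- STAT6-/- cells, against 70.6%, 71.1% and 73.1% of all genes tested called in either direction, with median log2 fold changes of -0.10, -0.01 and -0.08. The A20-binding adaptor genes split: Tnip2 (1.122, 1.48 and 1.30) and Tnip3 (0.85, 1.73 and 1.55) rose in T-bet-/-, STAT6-/- and T-bet-/- STAT6-/- cells, while Tnip1 fell (-0.80, -0.38 and -0.45). In the same order of mutants, Traf3, a brake on the alternative pathway, rose in all 3 (0.46, 0.79 and 0.69). Zc3h12a, the gene of the RNase Regnase-1, fell in all 3 (-0.72, -0.25 and -0.39), and Commd1, which promotes the removal of RelA, fell in all 3 mutants (-0.64, -0.73 and -0.52).

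All 29 genes of the list of IKK and its upstream signals were tested, and 10 were higher and 13 lower in T-bet-/-, 12 and 10 in STAT6-/- and 10 and 11 in T-bet-/- STAT6-/- cells than in WT, against the same 70.6%, 71.1% and 73.1% of all genes, with medians of -0.05, 0.05 and -0.07. Malt1 and Bcl10, genes of the complex that carries the PMA signal to IKK, went in opposite directions. Malt1, the protease of the complex, stood at 162 and 165 FPKM in T-bet-/-, 270 and 265 FPKM in STAT6-/-, 221 and 210 FPKM in T-bet-/- STAT6-/- and 82.4 and 83.2 FPKM in WT libraries. Malt1 was thus higher in all 6 mutant libraries than in both WT libraries, with log2 fold changes of 0.97, 1.68 and 1.37. Bcl10, the adaptor that binds it, fell in all 3 mutants (-0.68, -0.34 and -0.47).

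In the IKK complex itself, the catalytic subunit gene Ikbkb fell in all 3 mutants (-0.37, -0.50 and -0.52). Chuk, the gene of the other catalytic subunit, rose in T-bet-/- (0.35, adjusted p = 0.0029) and STAT6-/- cells (0.22, adjusted p = 0.0282) and gave 0.09 (adjusted p = 0.334) in T-bet-/- STAT6-/- cells. Ikbkg, the gene of the regulatory subunit, fell in T-bet-/- STAT6-/- cells (-0.23) and gave -0.12 in T-bet-/- and -0.10 in STAT6-/- cells, neither of them called. Chuk and Ikbkg were added after their values were seen. The IKK-related kinase gene Ikbke fell in all 3 mutants (-1.39, -1.67 and -1.85). Ikbke stood at 11.1 and 10.5 FPKM in T-bet-/-, 9.11 and 8.28 FPKM in STAT6-/-, 8.003 and 7.13 FPKM in T-bet-/- STAT6-/- and 32.1 and 27.9 FPKM in WT libraries. Among ubiquitin factors, Traf6 rose (0.58, 0.59 and 0.47), and Rbck1, a part of the linear ubiquitin ligase, fell (-0.54, -0.58 and -0.60).

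**Figure D5:**
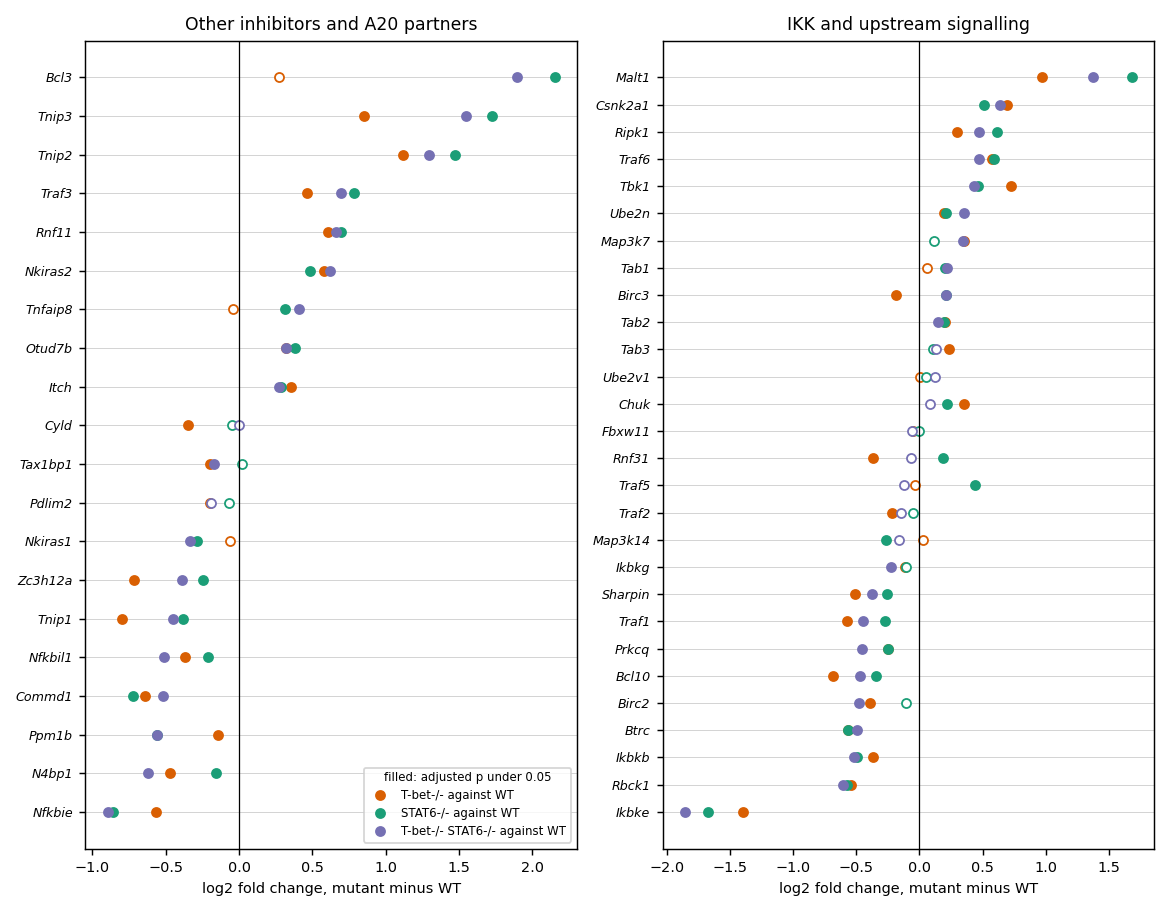
Log2 fold change against WT of genes from the lists of other inhibitors and A20 partners (left) and of IKK and upstream signalling (right), sorted by the value in T-bet-/- STAT6-/- cells; filled points passed an adjusted p of 0.05. Bcl3 lay at 2.15 and 1.90 in the mutants without STAT6 and Nfkbie below 0 in all 3 mutants, while Malt1 stood at the top and Ikbke at the bottom of the right panel.

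Genes known as NF-kB targets were read from a list of 40, all tested, which shares Nfkbie, Traf1, Birc3, Tnfrsf4, Tnfrsf9 and 4 immediate early genes with other lists used here. Against WT, 10 were higher and 20 lower in T-bet-/- (median -0.21), 18 and 13 in STAT6-/- (median 0.11) and 16 and 16 in T-bet-/- STAT6-/- cells (median -0.01), against 70.6%, 71.1% and 73.1% of all genes called. In STAT6-/- against T-bet-/- cells 20 were higher and 1 lower, with a median of 0.24 against -0.03 for all genes, and 12.3% of all genes were called higher. Icam1, an adhesion molecule, stood at 92.7 and 73.6 FPKM in STAT6-/-, 57.1 and 48.9 FPKM in T-bet-/- STAT6-/-, 29.1 and 27.4 FPKM in T-bet-/- and 29.1 and 27.5 FPKM in WT libraries, so that, as for Nfkbia, Nfkbib and Bcl3, the 4 libraries without STAT6 were above the other 4. The chemokine gene Ccl3 did not follow that order. Ccl3 stood at 226 and 190 FPKM in STAT6-/- and 12.4 and 13.2 FPKM in T-bet-/- STAT6-/- libraries. Its levels were 25.0 and 26.9 FPKM in T-bet-/- and 75.7 and 71.1 FPKM in WT libraries. The chemokine gene Ccl20 did follow it, at 371 and 452 FPKM in STAT6-/- and 1313 and 1424 FPKM in T-bet-/- STAT6-/- libraries. Ccl20 had 178 and 178 FPKM in T-bet-/- and 78.15 and 73.31 FPKM in WT libraries. Ccl20 rose in all 3 mutants (1.22, 2.42 and 4.16), as did Ier3, an early gene that protects from cell death (1.67, 1.68 and 1.76). Ltb, the gene of lymphotoxin beta, fell in all 3 (-1.02, -1.04 and -1.43).

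Of 23 receptors and adaptors that feed NF-kB, 19 were tested. Against WT, 6 were higher and 7 lower in T-bet-/-, 6 and 5 in STAT6-/-, and 10 and 7 in T-bet-/- STAT6-/- cells, against 70.6%, 71.1% and 73.1% of all genes called, with medians of 0.09, -0.05 and 0.34. Tnfrsf9, the gene of 4-1BB, rose in all 3 (0.65, 1.05 and 0.83), and Il1r2, a decoy receptor of IL-1, rose in all 3 (0.45, 1.10 and 1.78). Lower in all 3 were Cd27 (-1.22, -0.72 and -1.55) and Tnfrsf1b, the gene of TNF receptor 2 (-1.02, -0.55 and -1.06). In T-bet-/- STAT6-/- cells Il1r1, the signalling receptor of IL-1, rose by 1.16 against WT and by 0.75 against T-bet-/- cells.

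Other signals differed between the WT and the mutant libraries, and their part in the results above was not tested. Of 22 immediate early genes of activation, 21 fell in T-bet-/-, 15 in STAT6-/- and 17 in T-bet-/- STAT6-/- cells, and 1, 2 and 2 rose. Of all genes tested, 36.3%, 36.1% and 36.8% were called lower in these comparisons and 34.2%, 35% and 36.3% higher. The summed level of the immediate early genes was 10360 to 10960, 10620 to 11760 and 10890 to 11030 FPKM in the mutants and 18000 to 18400 FPKM in WT. Of 10 genes of CD4 T cell identity, 8 fell in T-bet-/-, 5 in STAT6-/- and 6 in T-bet-/- STAT6-/- cells, and 1, 3 and 2 rose, against the same shares of all genes. The summed level of these identity genes was 2651 to 2691, 3154 to 3175 and 2746 to 2955 FPKM in the mutants and 3276 to 3335 FPKM in WT. Of 10 red cell genes, 2 were in the table, Hba-a1 and Beta-s, with sums of 7.36 to 7.48, 2.65 to 6.53 and 2.63 to 4.15 FPKM in the mutants and 224 to 442 FPKM in WT. Of 15 myeloid markers, 8 were in the table, with sums of 103 to 109, 146 to 148 and 114 to 139 FPKM in the mutants and 187 to 193 FPKM in WT. Ctss and Cst3 made up most of these sums. Ctss had means of 49.47, 58.4 and 46.25 FPKM in the mutants and 107.7 FPKM in WT. Of the 7 markers tested, 5, 3 and 4 were called lower than in WT and 0, 1 and 1 higher. The higher one was Cd68, in STAT6-/- (0.67) and T-bet-/- STAT6-/- cells (0.45). Of 13 B cell markers, 9 were in the table, with sums of 58.1 to 60.9, 74.7 to 172 and 73.2 to 78.1 FPKM in the mutants and 69.98 to 112 FPKM in WT, and the defining marker Ms4a1 lay at or below 0.939 FPKM in every library. Of 2 CD8 genes, 1 was in the table (Cd8b1), at 3.02 to 5.601 FPKM over all libraries. Sums for stroma and endothelium (2 of 9 genes in the table) were 10.5 to 10.8, 8.15 to 8.78 and 10.7 to 11.3 FPKM in the mutants and 24.2 to 26.0 FPKM in WT. Pecam1 made up most of these sums. Col1a1 went the other way, with means of 0.427, 0.551 and 0.794 FPKM in the mutants and 0.222 FPKM in WT. Keratinocyte genes (4 of 7) summed to 38.7 to 41.0, 57.4 to 58.1 and 48.8 to 55.0 FPKM in the mutants and 11.4 to 11.7 FPKM in WT. Perp made up most of these sums, with means of 36.35, 50.79 and 49.23 FPKM in the mutants and 8.602 FPKM in WT. Against WT, Dsp rose in all 3 mutants (1.27, 1.01 and 0.70), while Sfn gave -0.76, 0.93 and -0.79. Krt10 lay at or below 0.993 FPKM in every library. The 1 of 6 mast cell genes in the table, Kit, had 8.11 to 8.67 FPKM in T-bet-/-, 32.5 to 34.0 FPKM in STAT6-/-, 56.7 to 62.9 FPKM in T-bet-/- STAT6-/- and 18.1 to 18.6 FPKM in WT libraries. Kit was thus higher in the 4 libraries without STAT6, as Nfkbia, Nfkbib and Bcl3 were, and its part in those results was not tested.

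Genes with the pattern most like that of a member were sought by the root mean square difference of the 4 genotype means on log2(FPKM + 1), each centred on its own mean, over the 10266 genes tested. Nearest to Nfkb1 was Telo2 (0.0136, against a spread of 0.379 of Nfkb1 itself), to Rel Ctsf (0.00518, against 0.324) and to Nfkb2 Clp1 (0.00708, against 0.154). Nfkbia was nearest to Elk1 (0.0292, against 0.311) and then Ppp1r15a (0.0343), and Nfkbib to Rnf157 (0.0297, against 0.383). For Nfkbid the nearest were 1500032L24Rik (0.0410, against 0.243) and 1110001J03Rik (0.0413), for Tnfaip3 it was Mdm4 (0.0201, against 0.189), for Rela Erbb3 (0.00692, against 0.123), for Relb Klf11 (0.0124, against 0.111) and for Nfkbiz Mfn1 (0.00736, against 0.0650). How often matches this near arise among 10266 genes and 4 means was not tested, and they are given as a description.

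On mm10, counted from 1 and spanning the whole gene in RefSeq, the 10 genes lie on chromosome 3 at 135584655-135691969 (Nfkb1), chromosome 19 at 46300994-46312400 (Nfkb2) and 5637442-5648134 (Rela), chromosome 11 at 23736847-23770969 (Rel), and chromosome 7 at 19606217-19629438 (Relb), 28758251-28766644 (Nfkbib) and 30421731-30428749 (Nfkbid). Nfkbia lies on chromosome 12 at 55489409-55492647, Nfkbiz on chromosome 16 at 55811375-55838954 and Tnfaip3 on chromosome 10 at 19000910-19015410. The FPKM of a gene covers its annotated exons, so isoforms such as those of Nfkb2 and Nfkbid, with 3 curated RefSeq transcripts each, are not told apart.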

How the data were processed

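RNA of stimulated CD44+ CD4+ T cells was sequenced in 8 libraries, 2 per genotype, grouped by their titles. The deposited table holds FPKM values, 1 column per library, which the authors made with Cufflinks on build mm10, per the submitters' processing notes. The sources used here give no aligner, version or strandedness. All 11906 lines lie above 0.1 FPKM in all libraries, so a gene that falls below it in any library is missing. For 43 symbols on several lines (no family member) the line with the highest mean was kept, and 17 date-like names were left out, which left 11824 symbols.

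Depth is not printed. Ratios between libraries of 676 genes under 0.6 FPKM gave relative depths of 0.856 to 1.04, taken for each library as the commonest ratio (shared by 16 to 32 genes within 0.001 on the log2 scale). No count test was run.

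Tests used limma 3.58.1 (R 4.3.3) on log2(FPKM + 1), a scale that understates fold changes of low genes, for the 10266 genes reaching 1 FPKM in at least 2 libraries. The model gave each genotype its own mean over all 8 libraries, with 4 residual degrees of freedom and an intensity trend. The two-sided p-values were adjusted per comparison, for 7 comparisons, by Benjamini-Hochberg. The labels do not tell whether the 2 libraries of a genotype are from separate mice, so the p-values reflect spread between libraries that may be technical only. The list genes named are the up to 4 called genes with the largest change in each direction, per list and comparison; their other values are given beside these. Marker genes were named after their values were seen. The family and the lists were chosen with earlier results of these data known. The 19 alternatives were other pseudocounts, filters, scalings and fits, each library left out, and, chosen after seeing the data, GC and length trends removed. Tables were made with Python 3.11.15 and pandas 2.3.3, and promoter sequences are those of RefSeq. Values of some list genes are not reported here, though their lists' counts and sums include them.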

Additional observations from a re-analysis of the deposited data

Results flagged for a closer look

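The effect of STAT6 loss differed between cells with and without T-bet for 5 of the 10 genes, by the interaction term of limma with Benjamini-Hochberg adjustment over all genes, in which 57.3% of all genes were called. The interaction was -0.844 for Nfkb1 (adjusted p = 0.000122), which rose with STAT6 loss in cells with T-bet (0.78) and gave -0.06 in T-bet-/- cells. For Nfkb2 it was 0.427 (adjusted p = 0.00249), with effects of 0.17 in T-bet-/- cells and -0.26 in cells with T-bet. For Rel it was 0.445 (adjusted p = 0.0351), with -0.26 in T-bet-/- cells and -0.71 in cells with T-bet. Nfkbid had 0.778 (adjusted p = 0.000322), with effects of opposite sign, 0.55 in T-bet-/- cells and -0.23 in cells with T-bet. Tnfaip3 had -0.403 (adjusted p = 0.00863), with -0.49 in T-bet-/- cells and -0.08 in cells with T-bet. The interaction uses the WT libraries, which stood apart from all mutants in the table as a whole. With 2 libraries per genotype no library could be tested as standing apart within its genotype.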

How the results depend on the processing

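Of 70 results (10 genes in 7 comparisons), 35 were called, of which 27 kept direction and call in all alternatives run, 8 lost the call in some and 0 reversed. The 8 are Relb in T-bet-/- against WT, T-bet-/- STAT6-/- against T-bet-/- and STAT6-/- against T-bet-/- cells, Nfkbid in STAT6-/- against WT, Rela in T-bet-/- STAT6-/- against T-bet-/- and against STAT6-/-, Tnfaip3 in T-bet-/- STAT6-/- against STAT6-/-, and the Rel interaction. Of 35 results not called, 17 were called in some alternative. The cause was not tested. A fit of only the genotypes compared gives no interaction.

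The number of family genes called in T-bet-/- STAT6-/- against STAT6-/- cells, 2, was 1 without the intensity trend, 1 with only those genotypes in the fit and 0 to 2 with 1 library left out. With 1 library left out, the genes called over the whole table were 845 to 2053 in that comparison (2040 with all), 1635 to 3307 in T-bet-/- STAT6-/- against T-bet-/- (3342 with all) and 1457 to 3082 in STAT6-/- against T-bet-/- cells (2794 with all).

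Direction reversed in 22 values of 14 results, with 0 past the threshold. With 1 library left out, the log2 fold change spanned -0.059 to 0.074 for Nfkbia and -0.0027 to 0.11 for Tnfaip3 in T-bet-/- against WT, and -0.0022 to 0.16 for Relb in T-bet-/- STAT6-/- against WT. In T-bet-/- STAT6-/- against T-bet-/- it spanned -0.13 to 0.0028 for Nfkb1 and -0.071 to 0.13 for Nfkbiz. In T-bet-/- STAT6-/- against STAT6-/- it spanned -0.067 to 0.059 for Nfkb2, -0.090 to 0.069 for Relb, -0.020 to 0.15 for Nfkbib and -0.046 to 0.16 for Nfkbiz. It spanned -0.091 to 0.041 for Nfkbiz in STAT6-/- against T-bet-/-, and -0.16 to 0.010 for the Nfkbib interaction. Quantile normalization gave -0.12 for Nfkbiz in T-bet-/- STAT6-/- against T-bet-/-, -0.0050 for Nfkbid in T-bet-/- STAT6-/- against STAT6-/- and -0.038 for Rela in STAT6-/- against T-bet-/-. With GC and length trends removed, Tnfaip3 had -0.019 in T-bet-/- against WT, Nfkb2 had 0.0016 in T-bet-/- STAT6-/- against STAT6-/-, and the Rela interaction was -0.014.

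With the replicate number as a block, 5, 7, 7, 6, 2, 4 and 4 family genes were called, in the order T-bet-/-, STAT6-/- and T-bet-/- STAT6-/- against WT, T-bet-/- STAT6-/- against T-bet-/- and against STAT6-/-, STAT6-/- against T-bet-/-, and the interaction, against 5, 6, 7, 6, 2, 4 and 5 without it. The labels do not say whether same-numbered libraries were handled together. Their deviations correlated at -0.0899 to 0.0908, which shows no strong shared shift but cannot settle that question. All 10 genes were above 69.0 FPKM in every library; what depth and library number limit was not tested.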
